A study of Rattus norvegicus with 6 samples.

Results

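The mitochondrial carriers described here are the 44 protein-coding genes of the deposited count table whose symbol is Slc25a followed by a number, out of 19825 genes in that table. Membership follows from symbol and gene type alone, with no use of expression values. Expression was measured by RNA sequencing in H9C2, a rat line of myoblast character from embryonic heart, which the labels call cardiomyocytes. The siPUM2 group (3 libraries) came from H9C2 cells transfected with small interfering RNA to inhibit PUM2. The NC group (3 libraries) came from H9C2 cells described as an inhibition control transfected with empty vector, with no mention of a non-targeting small interfering RNA. PUM2 is an RNA-binding protein that lowers the stability or translation of messages carrying its recognition element. Both groups share the cell line and a transfection. The labels give no time after transfection. Nothing says that replicate libraries were grown as separate cultures, so the p-values reflect the spread among these libraries, which may be technical.

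Mitochondrial carriers are small proteins of the inner mitochondrial membrane that exchange nucleotides, phosphate, organic acids, amino acids, cofactors and metal ions between the cytosol and the matrix. Each carrier is built from repeats of a paired-helix unit and alternates between a state open to the cytosol and a state open to the matrix. In heart and skeletal muscle the family is best known for the exchange of matrix ATP for cytosolic ADP, for phosphate import, and for the malate-aspartate shuttle, which moves reducing equivalents into the matrix.

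The libraries held 27704702 to 29278049 counts in siPUM2 and 27997107 to 30579237 counts in NC. Levels of a gene are given as CPM, its counts scaled to a common library size with TMM factors, and a single count came to 0.0326 to 0.0360 CPM. Pum2, the targeted gene, was at 127, 126 and 120 CPM in the siPUM2 libraries, against 223, 228 and 225 CPM in the NC libraries, which left 55.1% of the NC level. Of the cardiomyocyte markers, Tnnt2, Nkx2-5 and Gata4 were detected, whereas Myh7, Actn2, Tnni3, Ryr2 and Myl2 stayed at or below 0.179 CPM in each library and Myh6 at or below 0.752 CPM. The myoblast factor Myod1 was at 77.3 to 87.8 CPM in siPUM2 and 78.4 to 83.4 CPM in NC. Some muscle markers differed between the groups, in both directions. For the counts of called markers below, the share called over all genes tested was 28.4% (15.1% higher and 13.3% lower). The summed level of 9 matched cardiomyocyte markers was 466 to 520 CPM in siPUM2 and 304 to 362 CPM in NC, of which Tnnt2 made up most. Of 4 tested 1 was called, Tnnt2, which was higher (log2 fold change 0.67 ± 0.0447, adjusted p = 2.86e-12, edgeR). Myh6, Nkx2-5 and Gata4 had log2 fold changes of -0.58, -0.14 and -0.12 and were not called. The summed level of 7 matched myoblast markers was 386 to 410 CPM in siPUM2 and 367 to 374 CPM in NC, with 3 higher and 2 lower among 6 tested. Those higher were Cdh15 (log2 fold change 0.20 ± 0.0272, adjusted p = 1.73e-06, edgeR), Des (0.17 ± 0.0598, adjusted p = 0.0367) and Mymk (0.17 ± 0.0616, adjusted p = 0.0360). DESeq2 called 3 of this list. Against the sum, the differentiation factor Myog was lower, at 9.68, 9.22 and 8.79 CPM in siPUM2 and 15.9, 24.4 and 19.9 CPM in NC (log2 fold change -1.12 ± 0.103, adjusted p = 1.86e-09, edgeR), as was the embryonic myosin Myh3 (-0.93 ± 0.267, adjusted p = 0.00909, edgeR). Of the fibroblast markers 1 was called higher and 1 lower among 3 tested (summed 16529 to 16966 CPM in siPUM2, 16909 to 16991 CPM in NC), while Dcn, Lum and Pdgfra were near 0. Summed endothelial markers were at 2.16 to 2.64 CPM in siPUM2 and 2.25 to 2.38 CPM in NC, with 0 of 1 called. Summed macrophage markers were at 38.6 to 40.8 CPM in siPUM2 and 36.8 to 37.6 CPM in NC, nearly all from Cd14, with 0 of 3 called. None of these endothelial and macrophage markers had an unadjusted p under 0.05 in edgeR, and DESeq2 and limma voom called 0 of them. The part of any marker list in the carrier results was not tested, and in bulk RNA fewer cells of a type and less RNA per cell cannot be told apart.

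The promoter windows of both adenine nucleotide translocases and both aspartate-glutamate carriers are shown because these pairs carry the clearest isoform difference below. They are RefSeq sequences of the build GRCr8, running from 250 bases before to 50 after the annotated start, in the direction of the gene. Slc25a4 lies at chr16:52805271-52805570 on the plus strand, Slc25a5 at chrX:120897366-120897665 on the plus strand, Slc25a12 at chr3:76599487-76599786 on the minus strand and Slc25a13 at chr4:35328311-35328610 on the minus strand. Capitals mark TATAA on the gene's strand and CCAAT or GGGCGG on either strand, so that CCGCCC is GGGCGG read on the other strand, and no 2 marked motifs overlap.
Slc25a4: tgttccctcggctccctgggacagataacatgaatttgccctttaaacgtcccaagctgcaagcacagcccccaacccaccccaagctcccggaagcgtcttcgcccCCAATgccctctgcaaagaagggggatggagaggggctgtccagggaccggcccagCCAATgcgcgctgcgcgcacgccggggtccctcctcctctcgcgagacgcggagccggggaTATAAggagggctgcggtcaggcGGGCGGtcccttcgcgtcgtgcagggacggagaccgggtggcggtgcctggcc
Slc25a5: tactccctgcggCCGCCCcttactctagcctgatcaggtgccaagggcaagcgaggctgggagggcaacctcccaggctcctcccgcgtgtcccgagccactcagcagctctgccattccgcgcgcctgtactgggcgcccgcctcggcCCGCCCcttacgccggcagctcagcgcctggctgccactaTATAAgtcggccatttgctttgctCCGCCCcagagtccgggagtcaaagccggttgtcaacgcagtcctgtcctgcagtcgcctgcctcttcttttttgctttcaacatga
Slc25a12: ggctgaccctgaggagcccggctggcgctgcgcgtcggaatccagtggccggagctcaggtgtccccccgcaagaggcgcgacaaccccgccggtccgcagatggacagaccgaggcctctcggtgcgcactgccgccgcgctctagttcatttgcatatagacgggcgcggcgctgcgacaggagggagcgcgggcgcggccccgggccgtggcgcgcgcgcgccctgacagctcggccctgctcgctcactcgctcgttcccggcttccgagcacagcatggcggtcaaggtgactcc
Slc25a13: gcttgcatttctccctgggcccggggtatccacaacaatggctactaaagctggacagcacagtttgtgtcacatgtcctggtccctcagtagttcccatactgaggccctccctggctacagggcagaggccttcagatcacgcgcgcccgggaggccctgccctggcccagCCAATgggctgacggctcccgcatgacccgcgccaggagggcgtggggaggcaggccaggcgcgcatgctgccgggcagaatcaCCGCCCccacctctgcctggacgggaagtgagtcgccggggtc
In the Slc25a4 window TATAA began 26 bases before the annotated start and CCAAT began 87 and 143 bases before it, with GGGCGG 3 bases before. In the Slc25a5 window TATAA began 61 bases before the start, and GGGCGG was found 3 times, at 37, 101 and 238 bases. The Slc25a13 window held CCAAT 77 bases before the start and GGGCGG after it, and the Slc25a12 window held none of the 3 motifs. Of 44 carriers 35 had a window. Among these, 25 (71.4%) held GGGCGG, 20 (57.1%) held CCAAT and 3 (8.57%) held TATAA, against 33.1%, 37.5% and 18.4% of all 33469 windows of the same length. The carrier windows were also richer in G and C, with a median of 60.3% against 51.7% over all windows. The set of all windows was not limited to protein-coding or expressed genes, whereas the carriers are all protein-coding. Gene type and carrier family therefore cannot be told apart in these comparisons. Letters associated with 3 regulators of mitochondrial genes were searched on both strands. GCGC and TGCGC with any 1 base between them, for NRF1, was in 0 of 35 carrier windows and 4.25% of all windows. CCGGAAGT, for GABPA and other ETS factors, was in 2 carrier windows (5.71%), those of Slc25a17 and Slc25a20, and 3.81% of all windows. AAGGTCA, for estrogen-related receptors, was in 1 carrier window (2.86%), that of Slc25a34, and 4.61% of all windows. These matches describe letters in a window and not binding.

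Carrier transcripts were dominated by 3 genes in both groups. FPKM, which divides fragments by gene length and library size, allows levels to be set beside each other. Slc25a4, which encodes the adenine nucleotide translocase of heart and muscle (ANT1), was at 481 ± 1.73 FPKM in siPUM2 and 441 ± 5.94 FPKM in NC (SD, n = 3 each, as for all means here). The phosphate carrier Slc25a3, which also brings copper into the matrix, was at 396 ± 4.53 FPKM in siPUM2 and 385 ± 4.11 FPKM in NC. Slc25a5, the translocase of proliferating cells (ANT2), was at 317 ± 7.90 FPKM in siPUM2 and 361 ± 2.15 FPKM in NC. Together these genes made up 76.3% ± 0.0724 of the summed carrier FPKM in siPUM2 and 76.4% ± 0.377 in NC. The citrate carrier Slc25a1 came next, at 83.9 ± 0.575 FPKM in siPUM2 and 80.2 ± 3.64 FPKM in NC, followed by the glutathione carrier Slc25a39 at 48.0 ± 0.529 FPKM in siPUM2 and 47.8 ± 0.656 FPKM in NC.

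**Figure D1:**
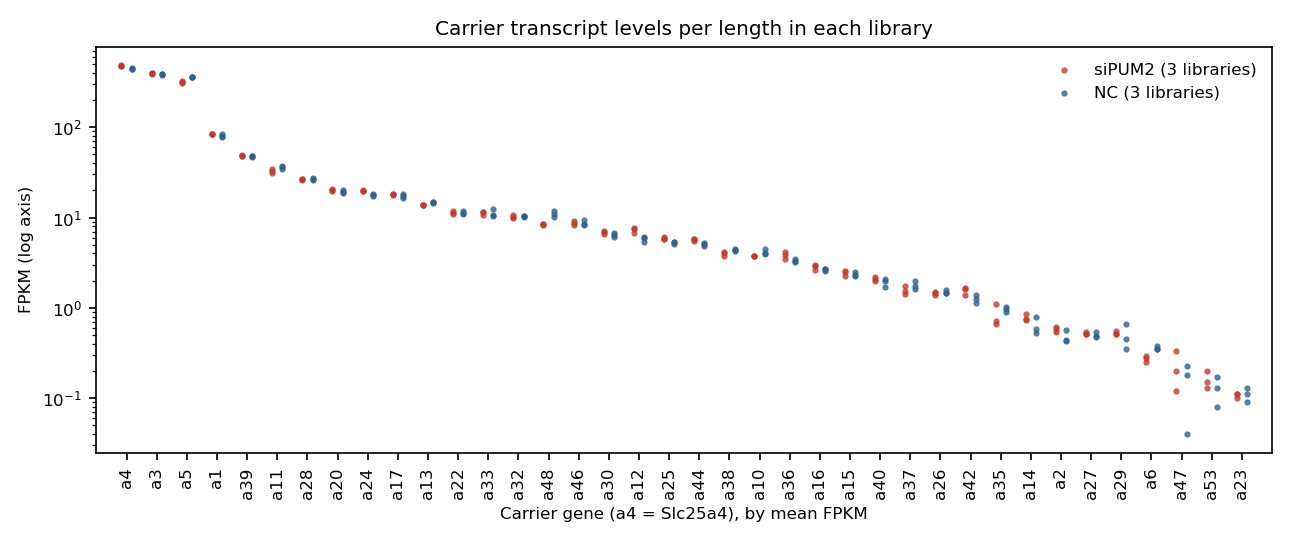
FPKM of 38 carrier genes in each library on a log axis, ordered by mean level, from those with a mean of at least 0.1 FPKM; siPUM2 libraries stand left of NC libraries. Slc25a4, Slc25a3 and Slc25a5 stand apart on the left, with group means of 317 to 481 FPKM, and the next gene, Slc25a1, has 83.9 FPKM in siPUM2 and 80.2 FPKM in NC.

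At the low end, 6 carriers did not pass the filter on low counts: Slc25a18 (a glutamate carrier), Slc25a23 (an ATP-Mg and phosphate carrier), Slc25a34, Slc25a36l1, Slc25a45 and Slc25a52. Each had at most 11 counts in any library. Slc25a52 had 1 count in each siPUM2 library and 0 counts in each NC library, which is below the 3 counts that a library with 0 counts still allows, so no difference was detectable at this depth. Slc25a6 bears the symbol of the translocase ANT3, but its promoter window ends in letters nearly the same as a stretch of the Slc25a5 window. Whether its reads came from Slc25a5 was not tested. Slc25a6 passed the filter with only 10, 11 and 12 counts in siPUM2 and 15 in each NC library. All siPUM2 counts lay below all NC counts, but at this depth the log2 fold change of -0.38 ± 0.372 (SE) was not called (adjusted p = 0.491, edgeR).

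The summed level of the family was close in both groups. It was 1566, 1563 and 1562 FPKM in siPUM2 1, 2 and 3, against 1569, 1549 and 1541 FPKM in NC 1, 2 and 3. The groups overlapped on this scale, because NC 1 was the highest library, and the ratio of the means was 1.01. Summed CPM, which is not divided by length, was 2811, 2819 and 2815 in siPUM2 and 2804, 2763 and 2753 in NC, without overlap and with means of 2815 ± 3.95 in siPUM2 and 2773 ± 27.2 in NC. Leaving out Slc25a4 turned the ratio to 0.974, with 1087, 1081 and 1081 FPKM in siPUM2 and 1127, 1101 and 1106 FPKM in NC. The family took 0.313% ± 0.00303 of all FPKM in siPUM2 and 0.308% ± 0.00207 in NC.

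Setting siPUM2 against NC shows how carrier messages differ between the groups. With NC described as empty vector, lowered PUM2 and other effects of the small interfering RNA cannot be told apart. Of 38 carriers tested, 6 were higher and 2 lower in siPUM2 at an adjusted p under 0.05 (edgeR, quasi-likelihood test, Benjamini-Hochberg over all genes tested). These 8 are 21.1% of the carriers tested, against 28.4% of all 12985 genes tested (15.1% called higher and 13.3% called lower). These shares were not tested against each other, and DESeq2 called 6 and limma voom 9 of the carriers. The changes called by edgeR were small, from -0.37 to 0.33 on the log2 scale. The median log2 fold change was 0.066 over the carriers and 0.001 over all genes tested. Of the carriers 26 were on the positive and 12 on the negative side, against 6531 and 6454 of all genes tested. The groups did not overlap for 15 carriers (39.5%), against 39.9% of all genes tested.

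**Figure D2:**
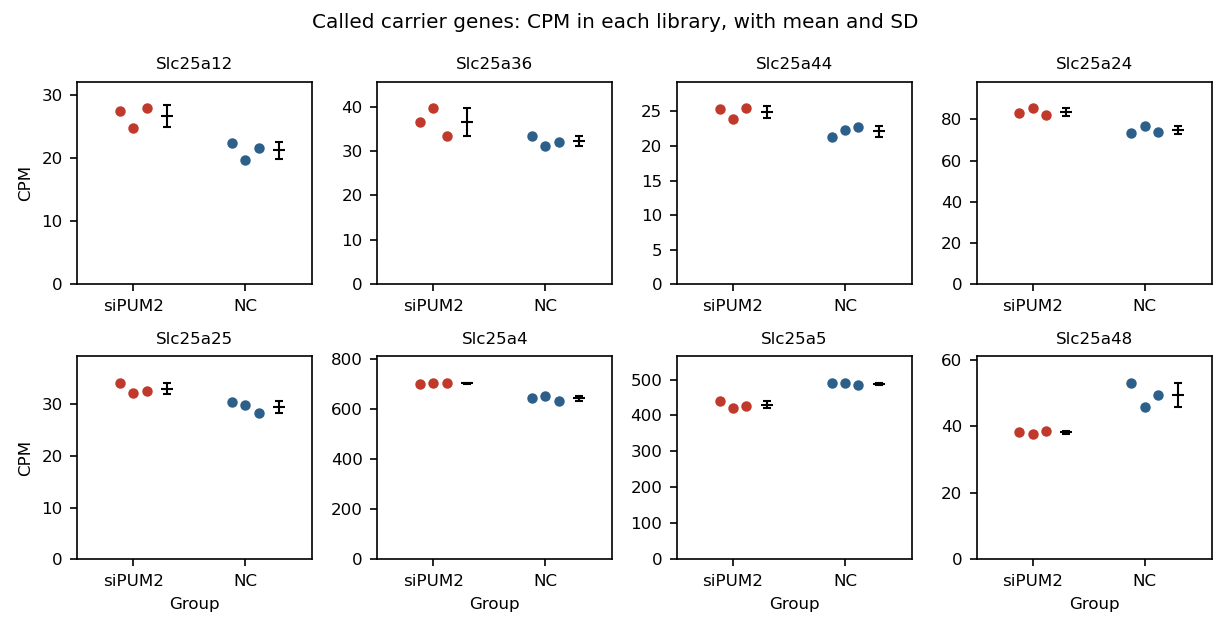
CPM of the 8 called carriers in each library (points, 3 per group), with the mean and SD beside them; axes start at 0 and siPUM2 is left of NC. The 6 genes from Slc25a12 to Slc25a4, in reading order, are higher in siPUM2, and Slc25a5 and Slc25a48 are lower.

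The adenine nucleotide translocases went opposite ways. Slc25a4 (chromosome 16) was at 698, 703 and 704 CPM in siPUM2 1, 2 and 3, against 643, 652 and 633 CPM in NC 1, 2 and 3. All siPUM2 libraries were above all NC libraries, and the log2 fold change was 0.13 ± 0.0240 (SE; adjusted p = 0.000174, edgeR). Slc25a5 (chromosome X) was at 441, 422 and 426 CPM in siPUM2, against 491, 489 and 484 CPM in NC. Here all siPUM2 libraries were below all NC libraries, with a log2 fold change of -0.18 ± 0.0252 (adjusted p = 1.79e-06). The FPKM ratio of Slc25a4 to Slc25a5 was 1.47, 1.55 and 1.54 in siPUM2, against 1.22, 1.24 and 1.22 in NC. The translocase mix was thus 1.24-fold more weighted to Slc25a4 in siPUM2, while the summed translocase level was 798 ± 6.22 FPKM in siPUM2 and 802 ± 7.45 FPKM in NC. RefSeq names 9 pseudogenes of Slc25a5 and 1 of Slc25a4, none of which is a row of the count table, and how reads that match several copies were counted is not given in the sources used here, so the levels of both genes are uncertain to that extent. The same holds for Slc25a39, with 8 named pseudogenes, and for Slc25a3 and Slc25a6, with 2 each.

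The carriers for ATP-Mg and phosphate are regulated by calcium and set the adenine nucleotide pool of the matrix. Of 2 tested members edgeR called 2 higher, against 15.1% of all genes tested, and DESeq2 called 1 of them. Slc25a24, the main form in these cells, was at 83.0, 85.6 and 82.3 CPM in siPUM2, against 73.5, 76.9 and 74.1 CPM in NC (log2 fold change 0.16 ± 0.0328, adjusted p = 0.000418, edgeR). Slc25a25, a form prominent in muscle, was at 34.2, 32.2 and 32.7 CPM in siPUM2, against 30.5, 29.8 and 28.3 CPM in NC. For both genes each siPUM2 library lay above each NC library, and the groups did not overlap for 39.9% of all genes tested. The call for Slc25a25 (log2 fold change 0.16 ± 0.0560, adjusted p = 0.0287, edgeR) was lost with DESeq2 (adjusted p = 0.0662) and without siPUM2 1 (0.101), NC 2 (0.0512) or NC 3 (0.109). On unfiltered log2(FPKM + 1) values it was also lost (adjusted p = 0.0881, limma). Slc25a3, the phosphate carrier proper, was at 650.0, 664 and 667 CPM in siPUM2, against 648, 635 and 638 CPM in NC. Its groups did not overlap either, but the log2 fold change of 0.04 ± 0.0241 was not called (adjusted p = 0.182, edgeR).

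Among amino acid carriers the aspartate-glutamate pair of the malate-aspartate shuttle differed in direction. Slc25a12 (aralar, chromosome 3), the form of heart, skeletal muscle and brain, was at 27.4, 24.7 and 27.9 CPM in siPUM2, against 22.3, 19.7 and 21.5 CPM in NC. The groups did not overlap, and the log2 fold change of 0.33 ± 0.0631 was the largest rise among the called carriers (adjusted p = 0.000173, edgeR). Slc25a13 (citrin, chromosome 4), the form best known from liver, was at 48.2, 47.5 and 48.4 CPM in siPUM2, against 52.3, 51.2 and 51.1 CPM in NC. It lay below NC in each siPUM2 library, yet the log2 fold change of -0.10 ± 0.0453 was not called by edgeR (adjusted p = 0.102). It was called on filtered log2(FPKM + 1) values with limma (adjusted p = 0.0369). The FPKM ratio of Slc25a12 to Slc25a13 was 0.545, 0.5 and 0.553 in siPUM2, against 0.411, 0.37 and 0.405 in NC, a 1.35-fold difference. Citrin was therefore the more abundant form per length in both groups.

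Slc25a44, a carrier of branched-chain amino acids described in brown fat of mice, was at 25.3, 23.9 and 25.5 CPM in siPUM2, against 21.3, 22.3 and 22.8 CPM in NC (log2 fold change 0.17 ± 0.0585, adjusted p = 0.0299, edgeR). Each siPUM2 library lay above each NC library. This call was lost with DESeq2 (adjusted p = 0.0999) and without siPUM2 1 (0.0761), siPUM2 3 (0.103) or NC 1 (0.0946). On unfiltered log2(FPKM + 1) values it was also lost (adjusted p = 0.0841, limma). The remaining amino acid carriers tested were not called. The glutamate carrier Slc25a22 had a log2 fold change of 0.01, the ornithine carriers Slc25a15 and Slc25a2 had 0.05 and 0.28, the basic amino acid carrier Slc25a29 had 0.13, and the glycine carrier Slc25a38, which serves heme synthesis, had -0.13.

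The largest fall among the called carriers was that of Slc25a48 (chromosome 17), which has been described in human and mouse cells as an importer of choline. It was at 38.3, 37.6 and 38.5 CPM in siPUM2, against 53.1, 45.9 and 49.4 CPM in NC. The siPUM2 libraries lay close together and below all NC libraries, with a log2 fold change of -0.37 ± 0.0545, or 1.30-fold lower (adjusted p = 4.87e-06, edgeR). The means were 38.1 ± 0.477 CPM in siPUM2 and 49.5 ± 3.63 CPM in NC. Members to which no substrate is assigned here were low: Slc25a35, Slc25a47 and Slc25a53 had means of 2.22, 0.379 and 0.496 CPM in siPUM2 and 2.59, 0.262 and 0.390 CPM in NC, and none of them was called.

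Carriers of organic acids were not called (0 of 3, against 28.4% of all genes), although their p-values were low before adjustment. The citrate carrier Slc25a1, which exports citrate for fatty acid synthesis, had a log2 fold change of 0.07 ± 0.0298 (adjusted p = 0.0862, edgeR). The dicarboxylate carrier Slc25a10 was at 27.3, 27.6 and 27.4 CPM in siPUM2, against 28.6, 29.6 and 32.5 CPM in NC, and the oxoglutarate carrier Slc25a11 of the malate-aspartate shuttle was at 35.3, 36.5 and 33.4 CPM in siPUM2, against 40.1, 36.8 and 38.6 CPM in NC. Both were below NC in all siPUM2 libraries. Their log2 fold changes were -0.14 ± 0.0585 for Slc25a10 (adjusted p = 0.0717, edgeR) and -0.14 ± 0.0559 for Slc25a11 (adjusted p = 0.0705, edgeR). The 3 organic acid carriers had an unadjusted p under 0.05 in edgeR. DESeq2 called 0 of them and limma voom called 1, Slc25a11 (adjusted p = 0.0435). Without NC 1, Slc25a1 and Slc25a10 were called (adjusted p = 0.0096 and 0.028, edgeR). With the replicate number as a block, Slc25a11 was also called (adjusted p = 0.0496, edgeR).

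Cofactor and nucleotide carriers held 1 call in 8 tested (12.5%, against 28.4% of all genes). Slc25a36, which carries pyrimidine nucleotides for mitochondrial DNA and RNA synthesis, was at 36.6, 39.7 and 33.4 CPM in siPUM2, against 33.4, 31.1 and 32.1 CPM in NC (log2 fold change 0.19 ± 0.0606, adjusted p = 0.0214, edgeR). The lowest siPUM2 library and the highest NC library were almost level. The call was lost on FPKM values (adjusted p = 0.110 to 0.225, limma) and without siPUM2 2 (0.151), NC 2 (0.0923) or NC 3 (0.0529). Its paralogue Slc25a33, which also carries pyrimidine nucleotides, had a log2 fold change of 0.01 and was not called. The coenzyme A carrier Slc25a42 was at 5.02, 5.76 and 5.98 CPM in siPUM2, against 4.97, 4.08 and 4.50 CPM in NC. Although siPUM2 lay higher throughout, the log2 fold change of 0.31 ± 0.126 was not called (adjusted p = 0.0680, edgeR). Slc25a16, Slc25a17 (the peroxisomal member), Slc25a26 (S-adenosylmethionine) and Slc25a32 (folate and FAD) had log2 fold changes from -0.05 to 0.11 and were not called.

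Iron and glutathione carriers, acylcarnitine transport and the relatives of uncoupling proteins showed no call, against 28.4% of all genes called. The mitoferrins Slc25a37 and Slc25a28, which bring iron into the matrix for heme and iron-sulfur clusters, had log2 fold changes of -0.20 ± 0.0990 and -0.01 ± 0.0446. The glutathione carriers Slc25a39 and Slc25a40 had 0.01 ± 0.0277 and 0.12 ± 0.169. Of these 4 genes Slc25a37 had an unadjusted p under 0.05 in edgeR (adjusted p = 0.130), and DESeq2 and limma voom called 0 of them. Slc25a20, which exchanges acylcarnitine for carnitine, was at 39.4, 41.1 and 40.4 CPM in siPUM2, against 40.4, 37.9 and 36.7 CPM in NC, with overlapping groups. The uncoupling protein relatives Slc25a14, Slc25a27 and Slc25a30 had log2 fold changes of 0.31 ± 0.137, 0.08 ± 0.134 and 0.09 ± 0.0584. Slc25a14 had an unadjusted p under 0.05 in edgeR (adjusted p = 0.0960) and was called without NC 3 (adjusted p = 0.0113), whose 180 counts stood above the 120 and 119 of NC 1 and NC 2. DESeq2 and limma voom called 0 of these 3. The outer membrane member Slc25a46, which takes part in mitochondrial fission and lipid exchange, had a log2 fold change of 0.01 ± 0.0612.

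**Figure D3:**
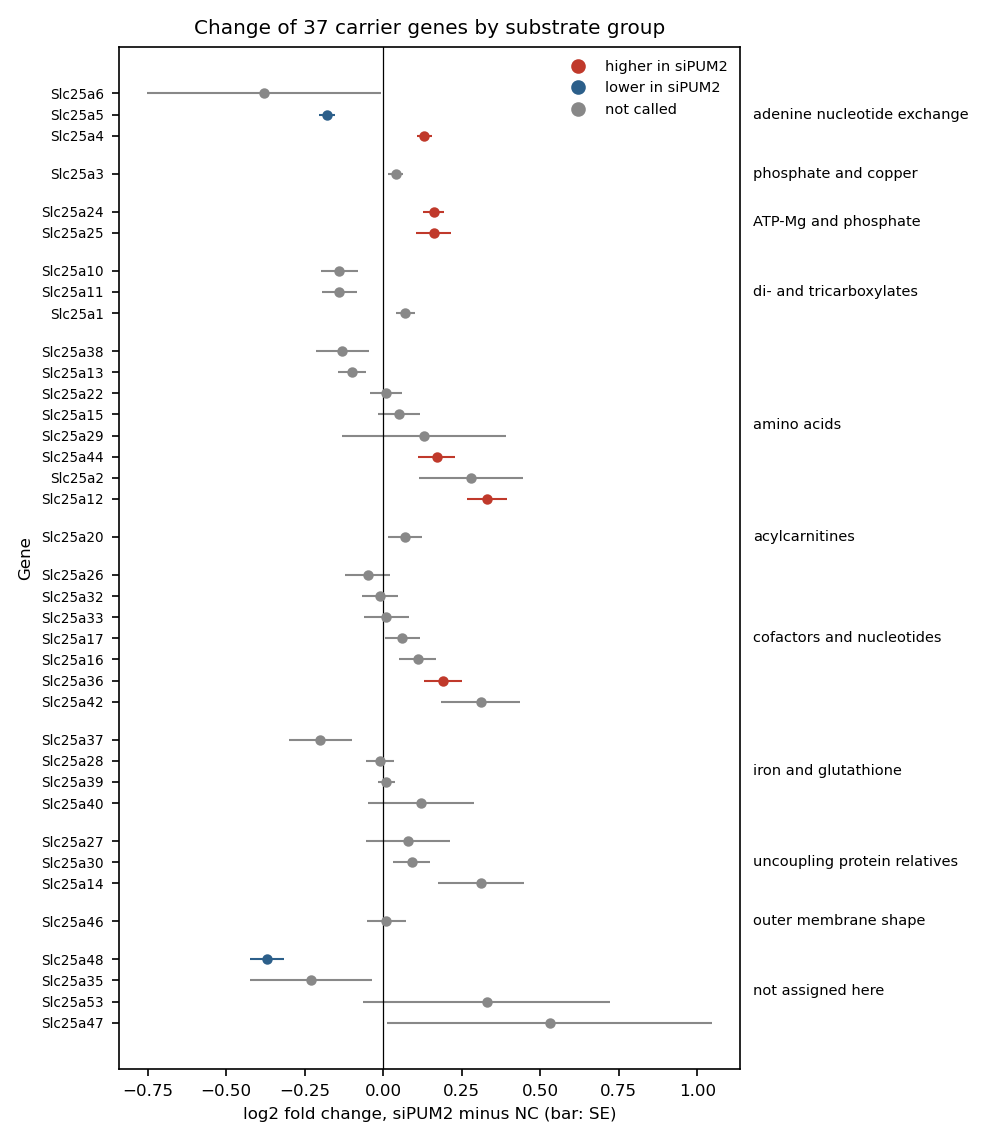
Log2 fold change (siPUM2 minus NC, bar: SE) of 37 carriers that passed the filter, grouped by substrate from top to bottom. The called genes, from -0.37 for Slc25a48 to 0.33 for Slc25a12, are coloured, and wide bars such as that of Slc25a47 mark genes with few counts.

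Ratios within pairs of carriers of like substrate were compared for 6 pairs, which were chosen after the values of the single genes had been seen. The groups did not overlap for 2 pairs, Slc25a4 over Slc25a5 and Slc25a12 over Slc25a13. The log2 ratio from CPM differed by 0.31 ± 0.0253 (SE) in the translocase pair and by 0.43 ± 0.0655 in the aspartate-glutamate pair. A two-sided exact permutation test of 3 against 3 libraries gave p = 0.1 for each, the smallest value this design allows (0.3 adjusted over the 6 pairs). With any single library left out the difference stayed at 0.30 to 0.33 for the translocase pair and 0.38 to 0.48 for the aspartate-glutamate pair. The other pairs overlapped. Slc25a37 over Slc25a28 differed by -0.19 ± 0.131, Slc25a39 over Slc25a40 by -0.11 ± 0.0996 and Slc25a36 over Slc25a33 by 0.17 ± 0.140 (exact permutation p = 0.2, 0.4 and 0.4, or 0.4, 0.48 and 0.48 adjusted). Slc25a24 over Slc25a25 was 3.39 ± 0.156 in siPUM2 and 3.39 ± 0.148 in NC on the FPKM scale, with both genes higher in siPUM2.

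**Figure D4:**
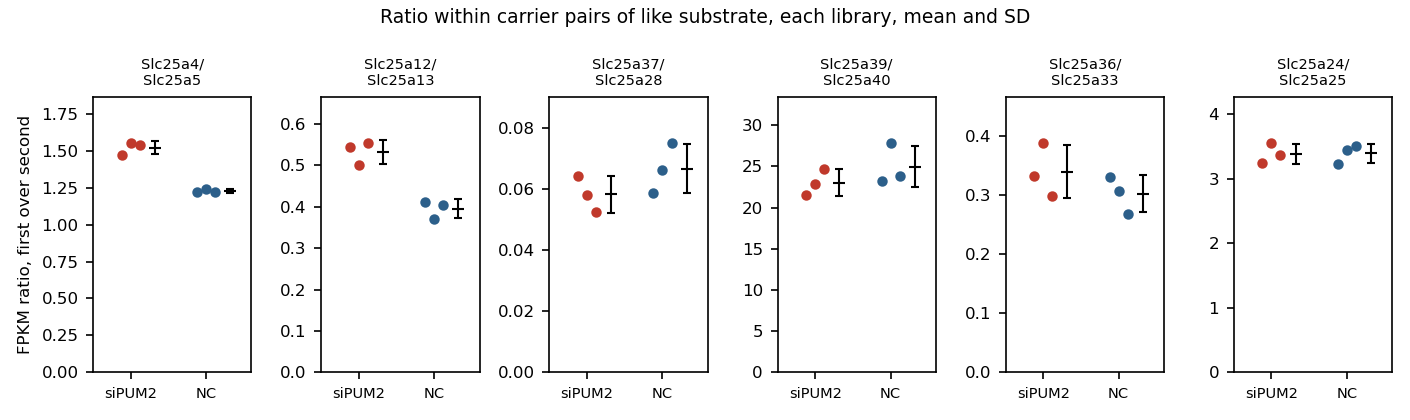
FPKM ratio within 6 pairs of carriers of like substrate in each library (points), with the mean and SD; axes start at 0 and siPUM2 is left of NC. The siPUM2 ratios are 1.47 to 1.55 against 1.22 to 1.24 in NC for Slc25a4 over Slc25a5, and 0.5 to 0.553 against 0.37 to 0.411 in NC for Slc25a12 over Slc25a13; in the other pairs the groups overlap.

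Carrier-family genes under other symbols were described beside the Slc25a genes. The uncoupling protein Ucp2 was lower, at 127, 123 and 130 CPM in siPUM2 against 143, 154 and 149 CPM in NC (log2 fold change -0.24 ± 0.0304, adjusted p = 6.82e-07, edgeR). The outer membrane insertase Mtch2 and its paralogue Mtch1 had log2 fold changes of -0.06 and -0.02 and were not called, and Ucp3 was near 0. Mtch2 lay below NC in each siPUM2 library (adjusted p = 0.0910, edgeR).

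Lists of genes that work with the carriers give the setting. Over 97 genes tested in 10 lists, 8 were higher and 17 lower in siPUM2, or 25.8% against 28.4% of all genes. Of 15 genes tested on the route that brings carriers from the cytosol to the inner membrane, 5 were lower and 0 higher, against 13.3% of all genes called lower. Tomm70, the outer membrane receptor for carrier precursors, was at 55.3, 56.9 and 54.8 CPM in siPUM2, against 65.7, 67.0 and 67.2 CPM in NC (log2 fold change -0.26 ± 0.0396, adjusted p = 9.14e-06, edgeR). The intermembrane-space chaperone subunit Timm8a1 (-0.21), the outer membrane pore Tomm40 (-0.13) and Timm22 (-0.19), the inner membrane translocase that inserts carriers, were also lower. Timm9 (-0.06) and Timm10 (0.14), the small chaperones dedicated to carriers, were not called. The call for Timm22 was lost without siPUM2 1 (adjusted p = 0.120, edgeR) or NC 1 (0.0569). Tomm22 (-0.08, adjusted p = 0.0453, edgeR), also among the 5, had overlapping groups. Its call was lost with DESeq2 (adjusted p = 0.0976), limma voom (0.0647) and a replicate block (0.0615, edgeR). It was also lost on FPKM values and without siPUM2 1, siPUM2 2, NC 1 or NC 2. On unfiltered FPKM values this list held 2 calls, with Tomm40 and Timm22 also lost (adjusted p = 0.0709 and 0.102, limma).

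Of 9 regulators of mitochondrial gene expression tested 6 were lower and 0 higher, against 13.3% and 15.1% of all genes, with a median log2 fold change of -0.127. Pprc1, a coactivator related to PGC-1, had a log2 fold change of -0.11 ± 0.0304 (adjusted p = 0.0071, edgeR) and Ppargc1b had -0.79 ± 0.219 from 1.27 ± 0.331 CPM in siPUM2 and 2.20 ± 0.212 CPM in NC. Gabpa, an ETS-family activator, was at -0.19 ± 0.0590 and Nrf1, nuclear respiratory factor, at -0.18 ± 0.0567. This count rested on small margins, since 2 genes were called without siPUM2 2 or without NC 2 and 3 without NC 3. The call for Ppargc1b was lost without siPUM2 2 (adjusted p = 0.0633, edgeR), that for Gabpa without NC 2 or NC 3 (0.0506 and 0.0580), and that for Nrf1 without siPUM2 2 or NC 2 (0.0558 and 0.0512) and on FPKM values (0.0878 to 0.153, limma).

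Partners in the shuttles went both ways. Of 10 enzymes of the malate-aspartate shuttle and citrate metabolism 2 were higher and 3 lower, against 15.1% of all genes called higher and 13.3% called lower. The cytosolic citrate lyase Acly, which cleaves the citrate exported by Slc25a1, was at 217, 228 and 211 CPM in siPUM2, against 191, 187 and 194 CPM in NC (log2 fold change 0.20 ± 0.0285, adjusted p = 4.69e-06, edgeR). The cytosolic isocitrate dehydrogenase Idh1 had 0.16 ± 0.0485, while the matrix enzymes Got2 and Mdh2 had -0.12 ± 0.0242 and -0.08 ± 0.0247. Without NC 2 this list held 2 calls, with Idh1 and Mdh2 among those lost (adjusted p = 0.107 and 0.0648, edgeR). Without siPUM2 2 it held 3, with Mdh2 among those lost (0.0639, edgeR). Citrate synthase Cs was also called lower (-0.07, adjusted p = 0.0377, edgeR). That call was lost with a replicate block (0.0615, edgeR) and on FPKM values (0.053 to 0.0662, limma). It was also lost without siPUM2 2, siPUM2 3, NC 2 or NC 3 (0.0769 to 0.108, edgeR). In the carnitine shuttle and fatty acid oxidation 2 of 11 were higher and 1 lower (27.3% called, against 28.4% of all genes). Cpt1c, the neuronal-type carnitine palmitoyltransferase, was at 25.6, 24.5 and 23.4 CPM in siPUM2, against 16.1, 17.4 and 17.3 CPM in NC (log2 fold change 0.53 ± 0.0611, adjusted p = 1.19e-07, edgeR), and the carnitine acetyltransferase Crat had 0.18 ± 0.0382. The trifunctional protein subunit Hadha had -0.07 ± 0.0250, a call lost without siPUM2 1, siPUM2 2, NC 2 or NC 3 (adjusted p = 0.0527 to 0.121, edgeR).

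Other transport systems of the inner membrane were counted in the same way. Of 13 transporters outside the carrier family 1 was called (7.69%, against 28.4% of all genes). It was the pyruvate carrier subunit Mpc1, at 99.9, 103 and 104 CPM in siPUM2 against 86.5, 82.6 and 90.2 CPM in NC (log2 fold change 0.24 ± 0.0328, adjusted p = 1.79e-06, edgeR). Its partner Mpc2 had 0.09 ± 0.0419 and was not called (adjusted p = 0.0932, edgeR). Of the 13 transporters 4 had an unadjusted p under 0.05 in edgeR, and DESeq2 and limma voom called 1 each. The groups did not overlap for 30.8% of them, against 39.9% of all genes. In the calcium uniporter complex 2 of 7 tested were higher and 1 lower (42.9% called, against 28.4% of all genes). The pore Mcu was lower (-0.18 ± 0.0311, adjusted p = 4.03e-05, edgeR) and the regulatory subunit Micu3 was higher (0.26 ± 0.0947, adjusted p = 0.0406, edgeR). The call for Micu3 was lost without any of the 6 libraries in turn (adjusted p = 0.0550 to 0.152, edgeR). Of 17 genes of iron-sulfur cluster and heme synthesis 1 was called (5.88%, against 28.4% of all genes). This was the assembly factor Isca1 (0.14 ± 0.0434), which lost its call without siPUM2 2, NC 2 or NC 3 (adjusted p = 0.0711 to 0.0825, edgeR). In that list 2 genes had an unadjusted p under 0.05 in edgeR. No call was made among 4 outer membrane channels or 8 genes of mitochondrial shape, against 28.4% of all genes called. An unadjusted p under 0.05 in edgeR was found for 0 of the channels and 2 of the shape genes, Mfn2 and Dnm1l. DESeq2 and limma voom called 0 in both lists.

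**Figure D5:**
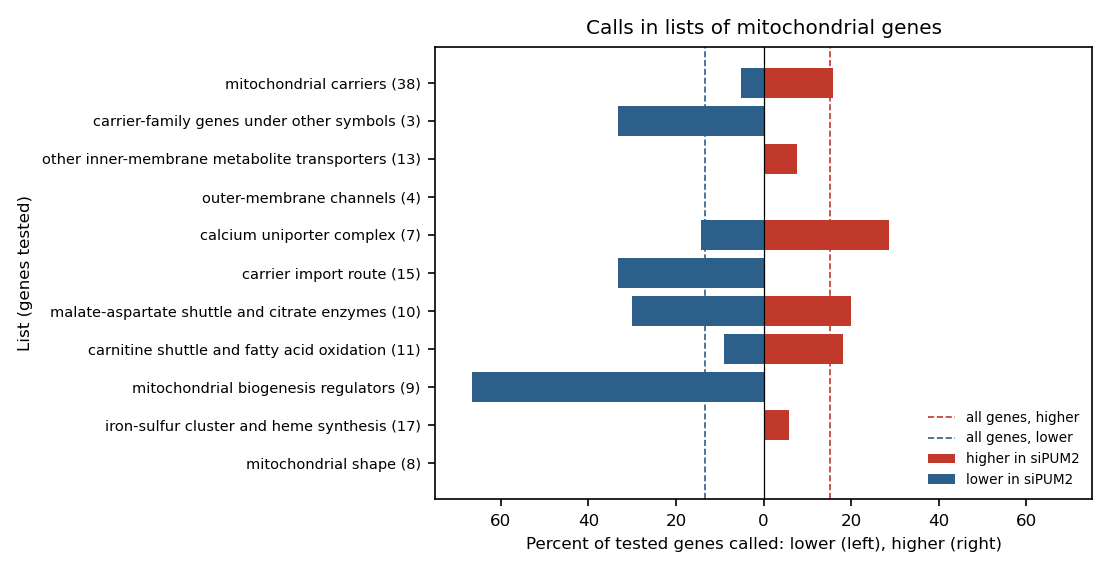
Percent of tested genes called higher (right) or lower (left) in siPUM2 for the carriers and 10 lists of mitochondrial genes, with the number tested in brackets; dashed lines mark 15.1% and 13.3% of all genes. The carriers sit near the line for higher calls and below the line for lower calls, and the biogenesis regulators reach furthest to the left.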

How the data were processed

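Polyadenylated RNA was captured, made into strand-specific libraries and sequenced from both ends, per the labels' protocols. HISAT2, DESeq2 and the build mRatBN7.2 appear, without versions, in the submitters' processing notes. Counting program and annotation: not given in the sources used here. Deposited by the authors were whole-number counts per gene (19825 genes, 0 without a name) and, for 19535 genes, FPKM values rounded to 2 decimals. The carrier family as a subject and the gene lists were chosen with earlier results of these data known, although the rule for members reads no expression value.

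Counts were tested with edgeR 4.0.16 (quasi-likelihood, glmQLFit and glmQLFTest, TMM factors, filterByExpr, group as the only term) in R 4.3.3. After the filter 12985 genes were tested, and the 6840 others held 0.0465% of the counts. Benjamini-Hochberg adjustment ran over all tested genes, with calls at an adjusted p under 0.05. Log2 fold changes (siPUM2 minus NC) have an SE from the quasi-likelihood F statistic. The test was checked on simulated data. Levels in CPM use TMM scaling, and 3 counts are the limit that a count of 0 allows, for counting error only. All carriers but 1 are named, all called carriers are given per library, and of each list up to 4 called genes with the lowest p; some genes that this rule takes are left out here. RefSeq names matched 128 of 140 list entries directly and 1 through an older symbol, and 1 repeated a gene. Within groups, libraries differed beyond sampling noise (chi-square per degree of freedom 2.04 to 3.65, against 11.9 to 13.2 between groups). Alternatives were RLE or library-size scaling, DESeq2 1.42.0, limma 3.58.1 (voom, and log2 FPKM with pseudocounts of 1 or 0.1), other filters, a replicate block, a threshold of 0.01 and each library left out. Pair ratios and their leave-one-out values were added after the data were seen.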

Additional observations from a re-analysis of the deposited data

How the results depend on the processing

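Of the 8 called carriers 5 (Slc25a4, Slc25a5, Slc25a12, Slc25a24 and Slc25a48) were called under all 17 alternatives run, and 3 (Slc25a25, Slc25a36 and Slc25a44) were lost in some of them; no direction of a called carrier turned. Another 7 carriers gained a call under some alternative: Slc25a1, Slc25a10, Slc25a11, Slc25a13, Slc25a14, Slc25a16 (without siPUM2 3, adjusted p = 0.0441, edgeR) and Slc25a42 (without siPUM2 1, adjusted p = 0.0435, edgeR). The count of called carriers was 7 to 9 with a library left out, with 4 to 6 higher and 2 to 3 lower. It was 5, with 3 higher, at an adjusted p under 0.01. On filtered log2(FPKM + 1) or log2(FPKM + 0.1) values 4 were lower, and on unfiltered log2(FPKM + 1) values 3 were higher. Over all genes the unfiltered FPKM fit called 2246 (1160 higher and 1086 lower), and the threshold of 0.01 left 1126 lower. Calls over the other lists came to 13 at that threshold and to 14 to 28 with a library left out, lowest without NC 2 (14) and siPUM2 2 (16). The ratio of summed carrier FPKM was 0.974 without Slc25a4. Apart from the threshold and the libraries left out, which change what is tested, the cause was not tested. Deviations of same-numbered libraries correlated weakly (0.0238, 0.0258 and 0.00373, against -0.0471 to 0.0217 for unlike numbers). Whether the numbers pair the libraries cannot be settled from these values. With the replicate block 9 carriers were called, 6 higher and 3 lower, 3731 genes in all and 24 in the other lists. The log2 fold change of Pum2 was then -0.86. Carriers with few counts, such as Slc25a6, could not show changes of the size seen here at this depth.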
